A study of Mus musculus with 6 samples.

Results

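The genes described here handle iron and haem: 10 of the 26286 genes in the deposited count tables, found by symbol in both tables. They were put together with the difference between the sorted populations already known. Their values in that comparison are therefore a description and carry no test. They comprise the iron exporter gene Slc40a1, the metal transporter genes Slc11a1 and Slc11a2, the haem transporter gene Slc48a1, the haem breakdown genes Hmox1 and Blvrb, transferrin (Trf) and its receptor (Tfrc), and the ferritin subunit genes Fth1 and Ftl1.

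The libraries came from mouse regulatory T cells (Treg), CD4+ T cells that restrain immune responses, sorted as CD25high cells from pooled spleens and lymph nodes of C57BL/6 mice with a GFP reporter of Blimp-1, the transcriptional repressor encoded by Prdm1. All 6 titles carry the prefix BlimpHet, and GFP+ and GFP- cells both come from these reporter animals, with no library from mice without the reporter. GFP- Treg gave replicate 20 by poly(A) selection and replicates 2 and 5 by an amplification protocol devised for single cells, used here on sorted populations. GFP+ Treg gave replicate 19 by poly(A) selection and replicates 1 and 4 by the single-cell protocol. Neither the age and sex of the animals nor the number pooled is stated in the labels. The design calls the 3 samples of a population biologically independent, so the errors below measure the spread between these samples.

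Iron enters most cells on transferrin through the transferrin receptor, is stored inside ferritin shells of heavy and light subunits, and leaves through ferroportin, the product of Slc40a1. Macrophages of the spleen take up aged red cells, pass haem out of the phagolysosome through HRG1, the product of Slc48a1, split it with haem oxygenase, and either store the iron or export it. Dividing and activated T cells are known to depend on the transferrin receptor for their iron. Iron regulatory proteins bind a hairpin called the iron-responsive element. In a 5′ untranslated region it blocks translation when iron is scarce, and in the 3′ untranslated region of Tfrc it protects the messenger RNA from decay.

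The hairpins are shown because they are the sequence feature that links storage, export and uptake among these genes. The pattern, searched on the sense strand of the transcript, was a C, 5 bases of stem, the loop CAGTGN and 5 bases that pair with the first 5 (Watson-Crick or G-T pairs). It matched 4 of the 10 genes in the GENCODE M21 transcripts. Capitals mark the loop, and 6 bases are shown on each side of the match, 5′ to 3′. The matches in the 5′ untranslated regions lie at chr19:9982732-9982760 (plus strand) for Fth1, chr7:45459779-45459807 (minus strand) for Ftl1 and chr1:45925465-45925493 (minus strand) for Slc40a1, all in GRCm38. The 3′ untranslated region of Tfrc holds 4 matches on the plus strand of GRCm38, at chr16:32631219-32631247, chr16:32631598-32631626, chr16:32631663-32631691 and chr16:32631710-32631738, given here in that order.
Fth1: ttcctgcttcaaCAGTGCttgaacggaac
Ftl1: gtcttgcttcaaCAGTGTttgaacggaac
Slc40a1: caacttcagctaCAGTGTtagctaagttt
Tfrc a: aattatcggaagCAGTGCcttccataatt
Tfrc b: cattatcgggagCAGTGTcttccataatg
Tfrc c: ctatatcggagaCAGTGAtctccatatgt
Tfrc d: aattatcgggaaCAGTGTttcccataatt

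Of 21901 protein-coding genes, 31 (0.142%) held such a match in a 5′ untranslated region and 129 (0.589%) in a 3′ untranslated region, over regions of unequal length. A match describes letters and pairing only, and counts of messenger RNA do not measure translation. Slc11a2, Slc11a1, Slc48a1, Hmox1, Blvrb and Trf had no match to this pattern in either region.

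Total counts ranged from 15224051 to 28354321 per library. In every series of values below, the GFP- libraries come in the order of replicates 20, 2 and 5 and the GFP+ libraries in the order 19, 1 and 4, so that poly(A) stands first. Levels below are CPM, a gene's counts per 1000000 counts that its library held for genes kept by a low-count filter. They are scaled by the TMM method to a common library composition. Differences are log2 fold changes of GFP+ over GFP- Treg from an edgeR model of the 6 libraries that holds the protocol as a term, given with their standard error. Prdm1 (Entrez 12142), the gene behind the sort, stood at 9.13, 2.46 and 2.66 CPM without the reporter signal (GFP-) and 152, 44.3 and 29.5 CPM with it (GFP+). The single-cell protocol table held no count for any gene of chromosomes 8 and 9, although 929 and 1022 of their genes had counts in the poly(A) libraries. On chromosome 3 it held counts for 2 genes, against 900 with poly(A). Hmox1 lies on chromosome 8 and Trf on chromosome 9, so their zeros in the single-cell protocol libraries are no reading of expression, and only the poly(A) pair, with 1 library per population, serves for them. The other 8 genes had counts under both protocols and all passed the low-count filter.

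Slc40a1 and Slc11a1 were higher in GFP+ Treg and stood apart from the other 6 genes of the fit. At the threshold of adjusted p under 0.05, 2 of the 8 fitted genes were called higher and none lower, where 9.81% of all 10523 tested genes were called higher and 3.68% lower. In the 4 single-cell protocol libraries alone the same 2 genes were called, where 5.54% of 10236 tested genes were higher, 1.41% lower and 6.95% either. Since the genes were chosen on this comparison, nothing is read from that count. The median log2 fold change was 0.72 over the 8 genes and -0.08 over all tested genes. GFP+ values lay above GFP- values within both protocols for 5 of the 8 (Slc40a1, Slc11a1, Slc11a2, Slc48a1 and Blvrb), a pattern that 21.3% of all tested genes showed.

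**Figure D1:**
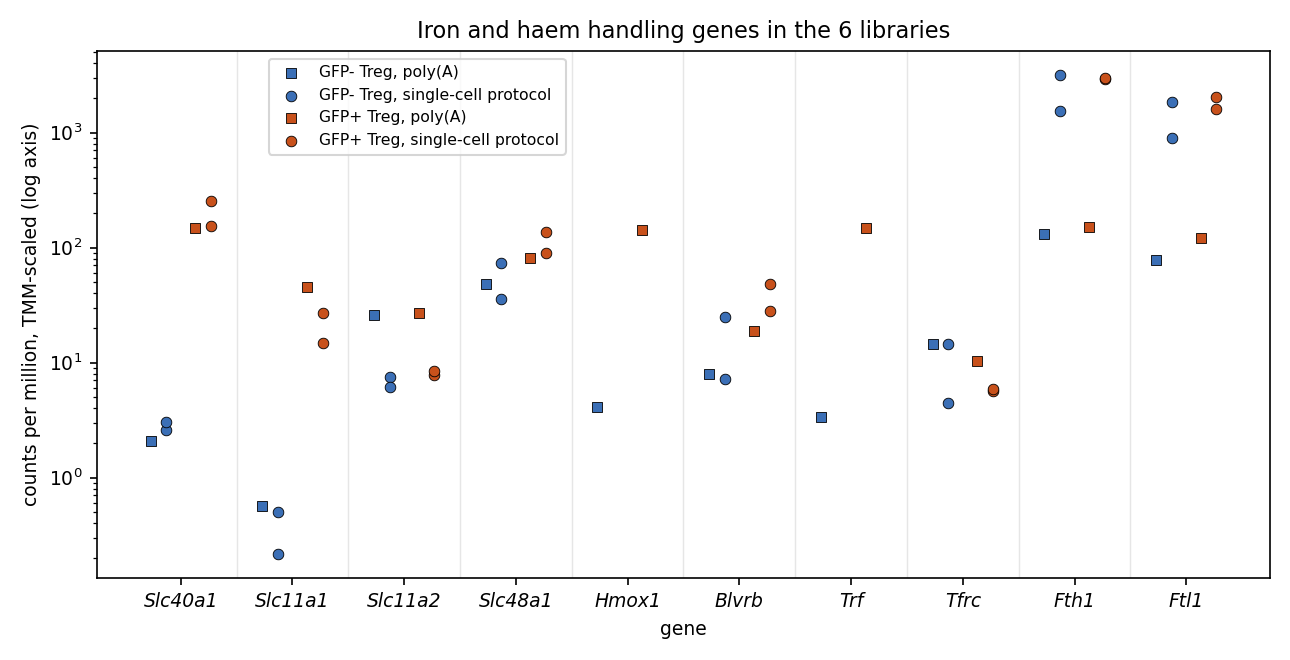
CPM (log axis, TMM-scaled) of the 10 genes in each library; blue is GFP- and orange GFP+ Treg, squares are poly(A) and circles single-cell protocol libraries, and libraries at 0 are not drawn. Slc40a1 runs from 2.06 to 3.04 in GFP- and from 148 to 256 in GFP+ Treg, while Fth1 and Ftl1 separate by protocol more than by population.

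Slc40a1 (Entrez 53945) encodes ferroportin, the only known cellular exporter of iron. It stood at 2.06, 2.61 and 3.04 CPM in GFP- Treg, against 148, 155 and 256 CPM in GFP+ Treg. Every GFP+ library lay far above every GFP- library, with no overlap across protocols either. On the log2 scale the difference was 6.18 ± 0.33 (SE, 3 libraries per population), which is 72.6-fold. It was 6.17 ± 0.53 in the 4 single-cell protocol libraries alone and 6.17 in the poly(A) pair. The message carries the 5′ hairpin shown above.

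The genes most like Slc40a1 in pattern were sought by the correlation of log2 CPM centred within protocol, over 6 libraries and among 6506 other genes of at least 10 CPM on average. They were the complement genes C1qa (r = 0.9998) and C1qc (0.9996), the lectin gene Fcna (0.9994), Itpripl2 (0.9992) and Serinc3 (0.9992). All libraries share the same contrast, and 332 genes had r above 0.95, so the order among them is a description. C1qa rose from 1.24, 3.55 and 4.68 CPM (GFP-) up to 106, 247 and 399.8 CPM (GFP+). Correlation ignores size, and Serinc3 had a log2 fold change of 1.23 against 6.34 for C1qa.

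The 2 metal transporters of the natural resistance family behaved differently from each other. Slc11a1 (Entrez 18173) encodes NRAMP1, which moves divalent metals out of the phagosome of macrophages and neutrophils, and C57BL/6 mice are known to carry a loss-of-function allele of it. It had 0.565, 0.217 and 0.506 CPM in GFP- Treg, from 26, 3 and 4 counts. The GFP+ libraries had 45.0, 14.7 and 27.2 CPM, from 2212, 180 and 375 counts. The populations did not overlap, at a log2 fold change of 6.16 ± 0.41, or 71.4-fold. The poly(A) pair gave 6.32 and the single-cell protocol libraries alone 5.92 ± 0.61. With 3 and 4 counts in the low libraries, the size of the single-cell protocol estimate rests on few reads.

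Slc11a2 (Entrez 18174) encodes DMT1, which carries iron out of the endosome after uptake of transferrin. It had 25.9, 7.54 and 6.08 CPM in GFP- Treg, against 27.1, 7.85 and 8.41 CPM in GFP+ Treg. GFP+ libraries were above GFP- libraries of their protocol by small margins, and the log2 fold change of 0.18 ± 0.22 lay within its error. In the GFP- poly(A) library the level of Slc11a2 per length was 4.60 CPM per kilobase against 0.245 for Slc11a1, and in the GFP+ poly(A) library 4.81 against 19.5. The order of the pair was thus opposite in the 2 populations. Slc11a2 forms messages with and without an iron-responsive element, which counts per gene do not separate.

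**Figure D2:**
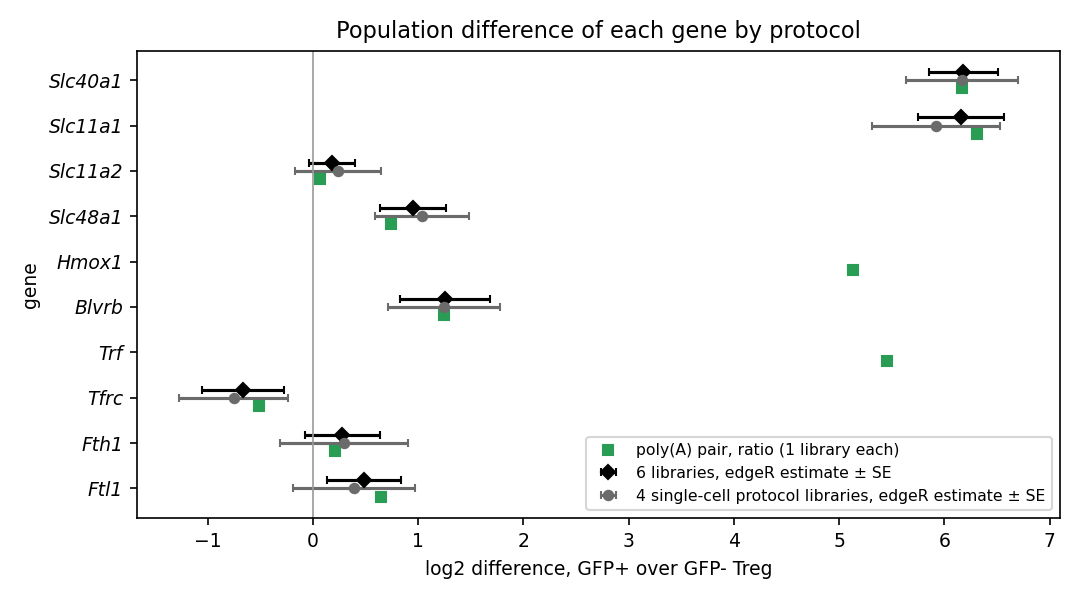
Log2 difference of GFP+ over GFP- Treg for each gene, as the estimate over 6 libraries (diamonds, ± SE), over the 4 single-cell protocol libraries (circles, ± SE) and as the ratio in the poly(A) pair (squares, 1 library each). Slc40a1 and Slc11a1 lie near 6 and Hmox1 and Trf above 5, while the other 6 genes lie between -0.66 and 1.26 over the 6 libraries.

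Haem handling held genes of very different size of change. Hmox1 (Entrez 15368) encodes haem oxygenase 1, the inducible enzyme that opens the haem ring and frees its iron. In the poly(A) pair it had 188 counts in GFP- replicate 20 and 7032 in GFP+ replicate 19, or 4.09 and 143 CPM. The log2 ratio was 5.13, with a 95% interval from 4.92 to 5.35 that covers counting error only. This ratio of 35.0 has no replicate check. Among genes with at least 20 counts in the pair, 6.00% had a ratio above 4.

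Slc48a1 (Entrez 67739), the haem transporter gene, had 48.2, 35.9 and 72.8 CPM in GFP- Treg. Its GFP+ values were 80.8, 90.1 and 136 CPM. GFP+ libraries were higher within each protocol, but GFP- replicate 5 came close to the GFP+ values. A log2 fold change of 0.95 ± 0.31 did not reach the threshold.

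Blvrb (Entrez 233016) encodes biliverdin reductase B, which reduces a breakdown product of haem. It had 8.02, 7.17 and 25.1 CPM in GFP- Treg, against 18.98, 28.0 and 48.6 CPM in GFP+ Treg. GFP- replicate 5 was again the highest of its population, just under GFP+ replicate 1 and above the GFP+ poly(A) library. The log2 fold change of 1.26 ± 0.43 did not reach the threshold. The values of Slc48a1 and Blvrb were 1.25 and 1.87 without GFP- replicate 5, 1.13 and 1.49 with library totals in place of TMM, and 0.96 and 1.27 without a low-count filter. In these 3 settings 4 of the 8 genes were called higher, and 1 (Tfrc) was called lower without GFP- replicate 5. Without GFP- replicate 5, 1359 of 13694 genes were called higher and 797 lower. With library totals 1068 of 10523 genes were higher and 283 lower. Without a low-count filter 1682 were higher and 818 lower, among at least 19118 genes. Nothing is read from these counts of the 8 either. GFP- replicate 5 had the lowest TMM factor of the 6 libraries, 0.519 against 0.697 to 0.846 in the other single-cell protocol libraries.

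Transferrin and its receptor differed in sign. Trf (Entrez 22041) encodes transferrin, the iron carrier of plasma made mostly by the liver. In the poly(A) pair it had 156 counts in GFP- replicate 20 and 7335 in GFP+ replicate 19, or 3.39 and 149 CPM, with no replicate check. The log2 ratio was 5.46, with a counting interval from 5.23 to 5.70.

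Tfrc (Entrez 22042), the receptor gene known as CD71 and a marker of dividing cells, had 14.6, 14.6 and 4.43 CPM in GFP- Treg. Its GFP+ values were 10.2, 5.64 and 5.95 CPM. The poly(A) pair was lower in GFP+ Treg, while in the single-cell protocol both GFP+ libraries lay between the GFP- libraries. The log2 fold change of -0.66 ± 0.39 (SE, n = 3 per population) did not reach the threshold. GFP- replicate 2 set much of this value, which was -0.11 without that library. Without GFP- replicate 5 it was -0.97, and Tfrc was called lower there, given as a description.

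The genes most like Tfrc by the same measure were Eif3j1 (r = 0.9979), Senp2 (0.9970), Plaa (0.9966), Fbxo28 (0.9964) and Cdc73 (0.9962). Each was highest in GFP- replicate 2 among the single-cell protocol libraries, and their log2 fold changes lay between -0.39 and -0.22. Their likeness to Tfrc thus includes the height of that single library.

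Per length, the ferritin genes were the most abundant of the 10 in both poly(A) libraries. Fth1 (Entrez 14319), the heavy subunit that oxidises iron for storage, had 131, 1538 and 3182 CPM in GFP- Treg, against 152, 2903 and 2965 CPM in GFP+ Treg. On the TMM scale the single-cell protocol libraries overlapped, and GFP- replicate 5, with the lowest TMM factor, held the highest value of all. The log2 fold change of 0.28 ± 0.35 lay within its error. It was 0.0018 without GFP- replicate 2 and 0.62 without GFP- replicate 5. With library totals it was 0.46 ± 0.28, and on the deposited log2 RPKM values 0.60 ± 0.17, so its size relative to its error depends on the scaling.

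Ftl1 (Entrez 14325), the light subunit that helps form the mineral core, had 77.4, 889.7 and 1847 CPM in GFP- Treg, against 121, 1610.3 and 2019.7 CPM in GFP+ Treg. GFP+ libraries were higher in the poly(A) pair and, on the TMM scale, overlapped with GFP- libraries in the single-cell protocol. The log2 fold change was 0.49 ± 0.35, and it did not reach the threshold. Without GFP- replicate 2 it was 0.23, without GFP- replicate 5 it was 0.86, and with library totals it was 0.67 ± 0.29. On the deposited log2 RPKM values it was 0.81 ± 0.24. Both genes have near-identical processed copies in the mouse genome, and Ftl2, a close copy of Ftl1, had its own counts, so reads may be split among them in a way the sources do not state.

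Ferritin levels also differed between the protocols. Fth1 and Ftl1 together took 0.0353% of all counts in GFP- replicate 20 and 0.0474% in GFP+ replicate 19. In the single-cell protocol they took 0.205% and 0.261% in GFP- replicates 2 and 5 and 0.315% and 0.391% in GFP+ replicates 1 and 4. These shares are not scaled by TMM, and for them the GFP+ libraries lay above the GFP- libraries within each protocol. The ratio of heavy to light subunit reads per length was 1.90, 1.94 and 1.93 in GFP- replicates 20, 2 and 5. It was 1.41, 2.02 and 1.64 in GFP+ replicates 19, 1 and 4, with the poly(A) library lowest, and the GFP+ values on both sides of the GFP- values.

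Levels per length, which alone allow genes to be compared with each other, were set side by side in the poly(A) pair. In GFP- replicate 20 the order was Fth1 (152 CPM per kilobase), Ftl1 (79.8), Slc48a1 (19.1), Blvrb (9.27), Slc11a2 (4.60), Tfrc (2.97), Hmox1 (2.59), Trf (1.45), Slc40a1 (0.611) and Slc11a1 (0.245). In GFP+ replicate 19 it was Fth1 (176), Ftl1 (125), Hmox1 (90.8), Trf (64.0), Slc40a1 (43.9), Slc48a1 (32.0), Blvrb (21.9), Slc11a1 (19.5), Slc11a2 (4.81) and Tfrc (2.08). The storage genes led in both libraries, while Hmox1, Trf and Slc40a1 stood just behind ferritin in the GFP+ library and among the last 4 in the GFP- library. Slc48a1, Blvrb, Slc11a2 and Tfrc took later places in the GFP+ library, although of these only Tfrc had a lower level there. With 1 library per population, neighbours in these orders cannot be shown to differ beyond replicate spread.

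The differences in level, in place of ratios, gave another picture of the same pair. Hmox1 gained 88.2 CPM per kilobase, Trf 62.5, Ftl1 44.9, Slc40a1 43.3, Fth1 24.3, Slc11a1 19.3, Slc48a1 12.9, Blvrb 12.7 and Slc11a2 0.212, while Tfrc stood 0.889 lower. Ftl1 therefore gained about as much as Slc40a1 in level, at a ratio of 1.56 in place of 71.9. These differences have no replicate check either.

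**Figure D3:**
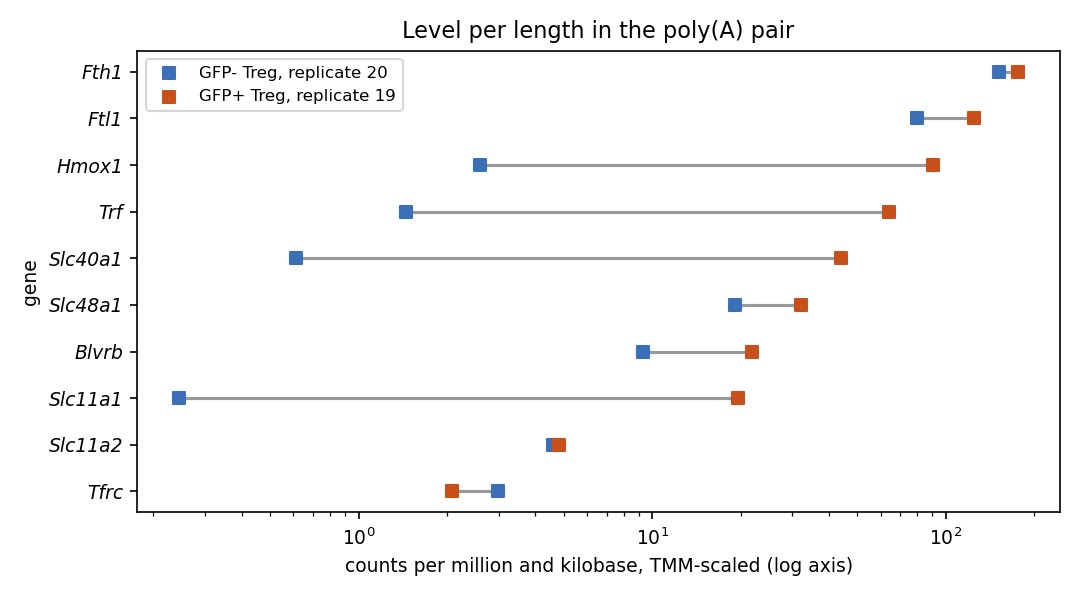
Level per length (CPM per kilobase, TMM-scaled, log axis) of each gene in GFP- replicate 20 (blue) and GFP+ replicate 19 (orange), joined by a line. The longest lines belong to Slc11a1, Slc40a1, Trf and Hmox1, and Tfrc is the single gene whose GFP+ value (2.08) is lower than its GFP- value (2.97).

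Whether the difference between populations depended on the protocol was tested with an interaction term. None of the 10523 genes was called (0.00%, quasi-likelihood F-test of edgeR, Benjamini-Hochberg), 24 had an unadjusted p under 0.05, and DESeq2 also called none. None of the 8 fitted genes was among the 24, and their smallest unadjusted p was 0.684 in this fit. Without GFP- replicate 5 the smallest unadjusted p among the iron and haem genes was 0.0863. That fit admitted genes with no single-cell protocol counts, so this value may come from Hmox1 or Trf, whose zeros there are no reading. The count of genes with an unadjusted p under 0.05 was 197 and 203 without GFP- replicates 2 and 5, where more genes entered the fit, and 5 with a minimum of 50 counts, with none called. On simulated counts of 10345 genes, the same model recovered 77 of 96 interactions of 4 on the log2 scale but 4 of 96 of 2, so smaller dependence on protocol was not detectable with these libraries.

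Markers of macrophages were higher in the same GFP+ libraries. Of 16 listed genes 13 were tested and all 13 were called higher, as were 9.81% of all tested genes. Their median log2 fold change was 6.11. The other 3, on chromosome 3, were Vcam1 (poly(A) log2 ratio 5.72), Cd5l (6.02) and Fcgr1 (6.52). Higher calls numbered 12 in the single-cell protocol libraries alone, 11 with a minimum of 50 counts and 9 without the protocol term. Without a low-count filter, which admits genes of chromosome 3, they numbered 16. The summed level of the 13 ran from 65.3 to 76.5 CPM in GFP- and from 1062 to 2097 CPM in GFP+ libraries. No marker of this list was at 0 in all libraries, and Itgam was at 0 in GFP- replicates 2 and 5. The most abundant were Axl, at 39.1 to 58.8 CPM in GFP- and 289 to 307 CPM in GFP+ libraries, and C1qc, at 1.78 to 4.18 and 143 to 466 CPM. In bulk samples fewer cells of a type and less RNA per cell cannot be told apart.

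The iron genes were next set against the summed CPM of the 13 tested macrophage markers. Slc40a1 stood at 0.0284, 0.0400 and 0.0397 of that sum in GFP- Treg, against 0.1398, 0.0897 and 0.122 in GFP+ Treg. Slc11a1 stood at 0.00776, 0.00333 and 0.00662, against 0.0424, 0.00855 and 0.0130. The ratios of both to this sum of 13 markers were higher in GFP+ Treg, by less than their own levels. Hmox1 had ratios of 0.0561 and 0.135 and Trf of 0.0466 and 0.141 in the GFP- and GFP+ poly(A) libraries. Slc48a1 lay between 0.550 and 0.952 in GFP- and between 0.0523 and 0.0761 in GFP+ libraries, and Blvrb between 0.110 and 0.328 and between 0.0162 and 0.0232, both lower in GFP+ Treg. Axl made up most of the sum in GFP- Treg, where the other 12 markers summed to 14.0, 26.2 and 33.6 CPM. In GFP+ Treg these 12 summed to 773, 1415 and 1797 CPM. Set against the 12, Hmox1 and Trf stand lower in the GFP+ than in the GFP- poly(A) library. The values of Slc40a1 and of Slc11a1 then overlap between the populations when libraries of both protocols are mixed. Within each protocol those of Slc40a1 stay higher in GFP+ Treg without overlap, by smaller margins than against the 13. Those of Slc11a1 are higher in the GFP+ poly(A) library but overlap in the single-cell protocol. The ratios, and for Hmox1 and Trf their direction, thus depend on which markers are summed. The part of macrophage RNA in the levels of these genes was not tested.

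Other cell types were read from markers in the same way. Haemoglobin genes, the erythroid markers, were higher in GFP+ Treg for Hba-a1 (log2 fold change 1.83 ± 0.42, adjusted p = 0.0197) and Hba-a2 (1.87 ± 0.44, adjusted p = 0.0220, edgeR with Benjamini-Hochberg adjustment), which rose as 2 of 4 tested markers. Hbb-b1 (1.61 ± 0.59) and Alas2 did not pass. The summed level of the 4 tested markers ran from 34.0 to 593 CPM in GFP- and from 96.6 to 1808 CPM in GFP+ libraries. It was highest in GFP- replicate 5 and GFP+ replicate 4. No erythroid marker was called without GFP+ replicate 1, in the single-cell protocol libraries alone or without the protocol term, and 1 was called without GFP- replicate 20, GFP+ replicate 19 or GFP+ replicate 4. Without GFP- replicate 5, where more genes entered the fit, 4 were called, with library totals 3, and without a low-count filter 5. Klf1, a factor of red cell precursors, had 4 counts in the GFP- and 11 in the GFP+ poly(A) library. T cell and Treg markers were high in both populations, with 3821 to 7177 CPM in GFP- and 3836 to 8578 CPM in GFP+ libraries over 8 tested genes, of which Ctla4 alone rose (log2 fold change 2.09 ± 0.32), a call lost without the protocol term. Foxp3, the defining factor of Treg, and Lck, the kinase of the T cell receptor, were the most abundant, with log2 fold changes of 0.21 ± 0.31 and -0.35 ± 0.38. Of the B and plasma cell markers 1 of 6 tested rose (Sdc1, 1.95 ± 0.52), with Cd79b and Igj the most abundant. No marker of this list was called when any library but GFP- replicate 5 was left out, in the single-cell protocol libraries alone, with a minimum of 50 counts, without the protocol term or with log2 RPKM, and 2 were called without GFP- replicate 5. Of the dendritic cell markers 1 of 2 tested rose (Itgax, 3.78 ± 0.35). The other, Siglech, had a log2 fold change of -0.76 ± 0.46 and did not pass. The single tested neutrophil marker, Ly6g, had 1.32 ± 0.44 and did not pass. In this list 1 marker was called higher with DESeq2, without a low-count filter, in the single-cell protocol libraries alone, and without GFP- replicate 20 or GFP+ replicate 19.

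The wider pathway was described by 6 lists of 73 further genes, of which 46 were tested. In total, 6 genes rose and none fell, against 9.81% and 3.68% of all tested genes, and macrophage markers were higher in the same libraries as given above. The 6 were Lrp1, Cd163, Hfe, Spic, Nr1h3 and Mafg. Without the protocol term the calls of Lrp1 (adjusted p of edgeR = 0.276), Cd163 (0.0766) and Mafg (0.385) were lost.

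**Figure D4:**
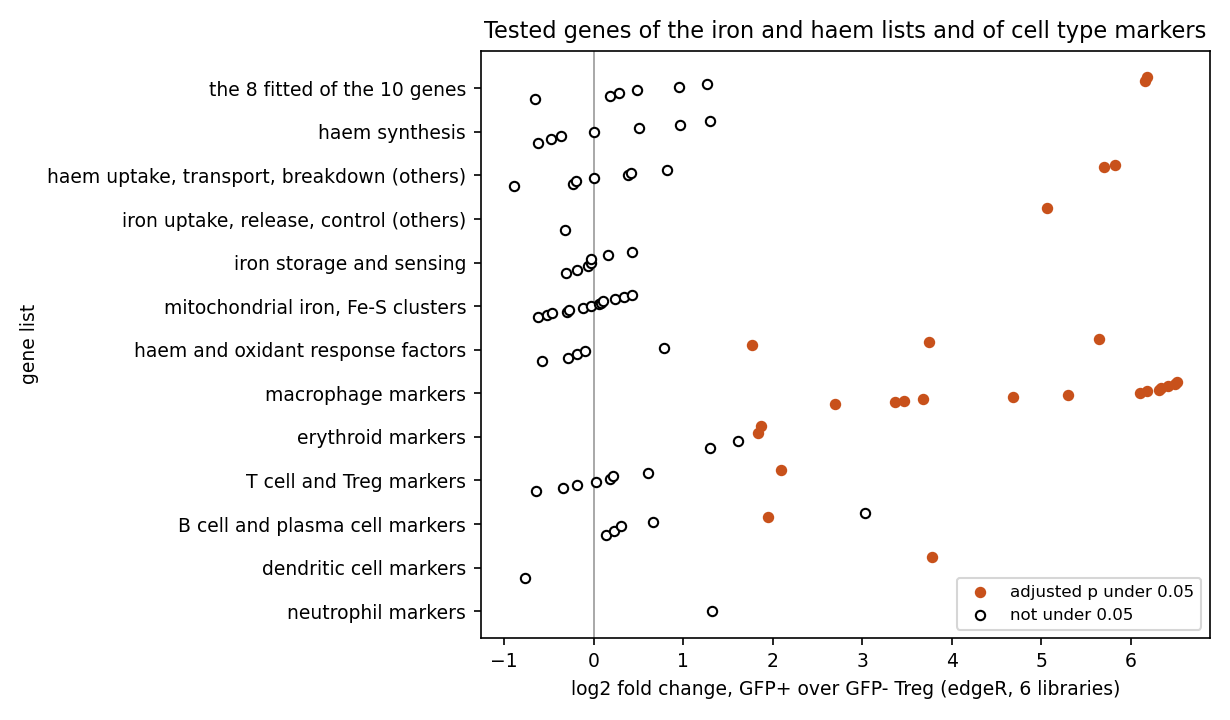
Log2 fold change of GFP+ over GFP- Treg (edgeR, 6 libraries) of each tested gene by list; filled points had an adjusted p under 0.05. Genes of haem synthesis, iron storage and iron-sulphur clusters lie at or below 1.30 and none passed, while the 13 tested macrophage markers all lie at or above 2.69.

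Uptake receptors of haem and haemoglobin were among them. Cd163, the scavenger receptor for haptoglobin-bound haemoglobin, rose with a log2 fold change of 5.70 ± 0.69 and went from 0.130, 0.145 and 0.253 CPM (GFP-) up to 15.4, 3.03 and 2.03 CPM (GFP+). Lrp1, the receptor for haem bound to haemopexin and for many other ligands, rose by 5.82 ± 0.32, from 1.74, 0.0725 and 0.127 CPM to 96.1, 5.89 and 6.38 CPM (Benjamini-Hochberg adjusted p of edgeR = 0.000894 for Cd163 and 2.99e-05 for Lrp1). In GFP- replicates 2 and 5 Lrp1 had 1 count each and Cd163 had 2 each, so both sizes rest on few reads there. Without GFP- replicate 20 the log2 fold change of Cd163 was 3.70, and without GFP+ replicate 19 it was 3.71. No other of the 9 tested genes of haem uptake, transport and breakdown passed. Hmox2, the constitutive haem oxygenase, had -0.20 ± 0.24 and Blvra, the other biliverdin reductase, 0.38 ± 0.23. Abcg2, an exporter that carries porphyrins, had -0.89 ± 0.26, and Slc46a1, a folate and haem carrier, 0.82 ± 0.49.

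Of the genes of iron uptake, release and systemic control only Hfe and Slc39a14 of 18 were tested, since 8 were without single-cell protocol counts and others were too low. Hfe, which interacts with the transferrin receptor and takes part in iron sensing, rose by 5.07 ± 0.36 from 0.217, 0.580 and 0.506 CPM (GFP-) up to 9.79, 12.3 and 18.5 CPM (GFP+). The GFP+ libraries did not overlap with GFP- libraries. Slc39a14, a zinc and iron importer, had -0.32 ± 0.25.

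Transcription factors of the haem and oxidant response rose for 3 of 8 tested genes. Spic, which haem induces in red pulp macrophages, had 0.174, 0.507 and 0.127 CPM in GFP- Treg, against 8.10, 26.9 and 12.3 CPM in GFP+ Treg (log2 fold change 5.64 ± 0.48). Nr1h3, the liver X receptor alpha, rose by 3.75 ± 0.26, and Mafg, a small Maf partner of the haem-sensing repressor Bach1 and of Nrf2, by 1.76 ± 0.27. Bach1 itself had -0.09 ± 0.26 and Nfe2l2, which encodes Nrf2, -0.29 ± 0.23. Keap1, the inhibitor of Nrf2, had 89.7 and 89.5 CPM in the GFP- and GFP+ poly(A) libraries. Epas1 had 0.78 ± 0.34 and did not pass.

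Haem synthesis, ferritin turnover and mitochondrial iron use gave no call. Of 7 tested genes of haem synthesis, 7 of iron storage and sensing and 13 of mitochondrial iron and iron-sulphur clusters, none passed in either direction (edgeR, Benjamini-Hochberg), and the list medians were -0.0003, -0.04 and -0.03 against -0.08 over all tested genes. Alad, an early enzyme of haem synthesis, had 0.96 ± 0.31, Alas2, the erythroid enzyme of the first step, 1.30 ± 0.53, Cpox 0.51 ± 0.26, and Uros -0.62 ± 0.29. Alad passed with library totals (adjusted p = 0.0338), without a low-count filter (0.00846) and without GFP- replicate 5 (0.0230). Ftl2 had 0.42 ± 0.32, Fbxl5, which degrades iron regulatory protein 2, -0.31 ± 0.22, and Aco1, which encodes iron regulatory protein 1, 0.16 ± 0.23. Pcbp2, an iron chaperone, had -0.18 ± 0.26. Ireb2, which encodes iron regulatory protein 2 and lies on chromosome 9, had 17.3 and 11.9 CPM in the GFP- and GFP+ poly(A) libraries, without a replicate check. Slc25a37, the iron importer of the mitochondrion, had -0.52 ± 0.29. Glrx5, which serves the making of iron-sulphur clusters, had 0.34 ± 0.24.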

How the data were processed

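For each protocol a table of raw counts per Entrez gene was deposited, per the file headers. Subread, featureCounts, edgeR and the build mm9 are named in the submitters' processing notes. Their versions and the strand setting are not given in the sources used. Deposited log2 RPKM values, so named per the file headers, served only as an alternative. Gene lengths in the single-cell protocol table stop near 3000 bases, so levels per length used the poly(A) table.

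Counts were analysed in R 4.3.3 with edgeR 4.0.16. Genes kept by filterByExpr were scaled by TMM and fitted to 6 libraries with population and protocol (3 residual degrees of freedom). The quasi-likelihood F-test was adjusted by Benjamini-Hochberg over 10523 genes at a threshold of 0.05, and standard errors come from its F statistic. A second model added the interaction (2 residual degrees of freedom). Intervals of poly(A) ratios are exact conditional binomial. The fit was tested on simulated counts of 10382 genes, where 97 of 100 changes of 2 and 19 of 98 of 1 on the log2 scale were recovered. Alternatives used DESeq2 1.42.0, limma 3.58.1, other scalings and filters, and each library left out.

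The genes, 6 pathway lists, 6 marker lists and tests were chosen with earlier results of these data known. Genes were named by rule: all 10; for each pathway list up to 4 with the smallest p and those that complete a small count; for each marker list the most abundant and those at 0; and the 5 most like Slc40a1 and Tfrc, with 0.5 added to CPM before logs. Hmox2, Blvra, Bach1, Nfe2l2, Keap1, Ireb2, Itgam, Klf1 and Siglech were named after their values were seen. Some genes that the rule names are not reported here. Chromosomes are from the RefSeq table of GRCm38, by Entrez number.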

Additional observations from a re-analysis of the deposited data

How the results depend on the processing

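No paired analysis was run, because the populations share no replicate number in the labels and the labels state no pairing. Over the 15 alternatives the log2 fold changes of Slc40a1 and Slc11a1 ran from 5.62 to 6.36 and from 5.32 to 6.37, given as a description. Over the 6 fits without a library, genes called higher numbered from 569 to 1359 and lower from 140 to 797 (1032 and 387 with all libraries). Higher calls were 602 without GFP- replicate 20 and 569 without GFP+ replicate 19, and lower calls 140 and 152. Lower calls were 618 and 797 without GFP- replicates 2 and 5 and 185 without GFP+ replicate 1. Without a low-count filter 1682 were higher and 818 lower, with a minimum of 50 counts 666 and 232, without the protocol term 115 and 24, and with the single-cell protocol libraries alone 567 and 144. DESeq2 called 714 lower and 1201 higher. In the 6 pathway lists the 6 higher genes became 3 without the protocol term and between 6 and 8 without a library. In the lists 1 gene was lower with DESeq2, with its size factors in edgeR and with log2 RPKM (Abcg2 in each), 2 without a low-count filter, and from 0 to 3 without a library. Fits without a filter, or without a single-cell protocol library, admit genes of chromosomes 3, 8 and 9 whose zeros are no reading. Lrp1, Cd163 and Mafg lost their calls without the protocol term (adjusted p = 0.276, 0.0766 and 0.385). Cd163 ranged from 3.70 to 6.28 without a library. Depth limits Slc11a1, Lrp1, Cd163 and Spic, which had few reads in the GFP- single-cell protocol libraries.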

Other observations

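Among the genes below the low-count filter, Cybrd1, a ferric reductase of the plasma membrane, ran against Slc40a1 and Slc11a1. It had 105, 23 and 6 counts in GFP- replicates 20, 2 and 5 and 13, 2 and 1 counts in GFP+ replicates 19, 1 and 4, or 2.28, 1.67 and 0.760 against 0.264, 0.164 and 0.0725 CPM. The GFP+ libraries lay below the GFP- libraries without overlap. Within both protocols, 19.3% of all tested genes lay lower in GFP+ Treg without overlap. That share is of genes that passed the filter, so Cybrd1 is not among them. It also asks for no overlap within each protocol only, and not across them. Steap3, the ferric reductase of the endosome, went the other way in the poly(A) pair, with 18 counts in GFP- replicate 20 and 112 in GFP+ replicate 19, and had at most 2 counts in any single-cell protocol library. These genes were chosen after their values were seen, and they did not pass the low-count filter, so their values are a description.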
